A study of Mus musculus with 12 samples.

Results

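Genes named for parts of the motile cilium were followed in the embryonic mouse brain, with Tekt1 and the transcription factor gene Foxj1 among them. Members were all gene identifiers whose symbol begins with Dnah, Dnaic, Dnal, Rsph, Tekt, Spag, Spef or Cfap followed by a digit, together with Foxj1. The rule used names only and no measured value, but it was set with earlier results of these data known. It found 73 members among the 40690 gene identifiers of the count table, and 65 of the 73 passed the filter on low counts that kept 16002 genes for testing.

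Motile cilia beat by means of an axoneme, a ring of doublet microtubules around a central pair. Outer and inner dynein arms on the doublets slide them against each other, radial spokes pass signals from the central apparatus to the arms, and tektins form filaments inside the doublet wall. FOXJ1 and the RFX factors switch on the genes of this machinery. In the embryonic brain, motile cilia are known from the choroid plexus, the floor plate and the subcommissural organ, while ependymal cells of the ventricle walls mature their tufts of cilia only after birth. The names do not all denote axonemal parts. Spag5 encodes a mitotic spindle protein and Spag9 a scaffold of JNK signalling, Spag1 takes part in assembling dyneins before they enter the cilium, and Dnah2os and Spag17os are antisense transcripts.

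Oligo-dT libraries came from the whole brains of 12 C57BL/6J embryos at embryonic day 14.5, each group holding 3 embryos. LC1 is a conserved non-coding element upstream of Pou3f2, a neuronal transcription factor gene, and the title of the study ties a candidate human variant to cognitive performance and bipolar disorder. LC1 KO embryos (7, 22 and 71) carried a knockout of the element and were set against wild-type embryos of that experiment (LC1 WT; 6, 26 and 73), and all of these were female. RKI homozygous embryos (A1, A10 and A18) carried a knock-in of the human sequence variant on both alleles and were set against wild types of that experiment (RKI WT; A2, A9 and A16), with 1 female, A10 or A9, and 2 males in each group. Neither change is limited to a cell type. Mutants and wild types were matched for sex and litter, per the labels, but no label names a litter, so litter could not enter a test. Library totals ran from 18192984 to 26566769 counts. All 7 neuron markers and all 8 radial glia markers of the lists were measured in the libraries and reached 1 CPM in at least 1 library, which is the check of the label brain. Genotypes were not checked here, since counts of genes hold no reads of the element.

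RFX factors bind the X-box, a motif found before many ciliary genes, and its core GTTGCC was searched on both strands from 250 bases before to 50 bases after each RefSeq gene start in GRCm38.p6. Of the 73 members 58 matched a promoter entry, and 21 of these 58 held the core (36.2%), against 14.1% of all 27025 genes with an entry. The full X-box palindrome, GTTNCC followed by NN and GGNAAC, was in 0 of the 58 members, against 0.529% of all genes. At so low a share, absence from 58 genes is not informative. The search also allowed no mismatch and no other spacing, so looser forms were not counted. The forkhead core GTAAACA, the kind of motif that FOXJ1 binds, was in 4 of 58 (6.90%), against 4.05%. The stretches that follow, read 5′ to 3′ on the gene's strand from RefSeq, hold the core in members whose values are described later, and were chosen after those values and the absence of the palindrome had been seen. Capitals mark the core, written GGCAAC where it lies on the opposite strand. A match is a run of letters, and binding was not measured.
Tekt1 (chr11:72361883-72361934, minus strand): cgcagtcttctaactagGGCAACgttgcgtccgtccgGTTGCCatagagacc
Tekt2 (chr4:126325762-126325801, minus strand): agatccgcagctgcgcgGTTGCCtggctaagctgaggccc
Cfap44 (chr16:44394763-44394798, plus strand): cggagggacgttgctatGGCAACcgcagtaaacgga
Cfap46 (chr7:139683816-139683841, minus strand): tctgggccccgtctctaGGCAACcgc
Cfap20 (chr8:95434941-95434980, minus strand): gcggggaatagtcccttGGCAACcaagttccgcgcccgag
Dnah7c (chr1:46425282-46425321, plus strand): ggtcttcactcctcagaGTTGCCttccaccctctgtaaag
The Tekt1 stretch holds 2 cores in opposite orientation, and the nearer one ends 9 bases before the RefSeq start used. Tekt1 has another, outer start in GENCODE M21, at 72362442, and the stretch lies 508 bases downstream of that one, in no GENCODE exon, and 10 bases before the start of a shorter transcript. Its distance to a start thus depends on the transcript. In Cfap46 the distance is 3 bases and in Cfap44 it is 13 bases, while in Cfap20 it is 88 bases and in Dnah7c 213 bases. Tekt2 and Cfap44 also hold 2 cores each, of which only 1 is printed. The Tekt2 core shown lies 90 bases before a RefSeq start and the other 16 bases. In Cfap44 the other lies 123 bases before.

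The members spanned a wide range of levels, and the dynein heavy chains lay low. Levels between genes are compared as RPKM, which divides by gene length and library total, averaged over the 12 libraries. Spag9 was highest at 45.3 ± 1.09 RPKM (SD, n = 12), ahead of Cfap20, a protein of the inner junction between the tubules of a doublet, at 40.7 ± 1.43 RPKM and Spag7 at 30.03 ± 2.24 RPKM. Cfap36 had 21.1 ± 1.49 RPKM, Spef1, a microtubule-bundling protein of the central apparatus, 18.9 ± 1.29 RPKM, and the dynein light chain Dnal4 15.8 ± 0.722 RPKM. The SD ranges of Spef1 and Cfap36 touched, as did those of Dnal4 and Foxj1, which had 14.9 ± 1.49 RPKM. Dnal1, a light chain of the outer arm, had 9.76 ± 0.406 RPKM, Cfap97 8.41 ± 0.391 RPKM and the radial spoke head protein Rsph9 8.04 ± 0.667 RPKM. Several of the highest members, among them Spag9, Cfap20, Cfap36 and Cfap97, are known to be expressed broadly outside motile cilia.

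By role, the 5 tektins had a median of 1.19 RPKM, led by Tekt1 at 3.73 ± 0.646 RPKM. The 8 radial spoke proteins had a median of 1.68 RPKM. The 5 outer arm heavy chains had a median of 0.332 RPKM with Dnah9 highest at 0.829 ± 0.0835 RPKM. Among the 10 inner arm heavy chains the median was 0.144 RPKM, and Dnah1 was highest at 1.37 ± 0.0770 RPKM. Intermediate and light chains of dynein, 4 members, had a median of 5.38 RPKM, to which no member lay close. The light chains Dnal4 and Dnal1 were above it, at 15.8 and 9.76 RPKM. The intermediate chains Dnaic2 and Dnaic1 were at 0.996 ± 0.158 and 0.656 ± 0.129 RPKM, within the range of the heavy chains. The heavy chains thus sat lower per length than the light chains Dnal1 and Dnal4, as the plot of levels by role shows.

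**Figure D1:**
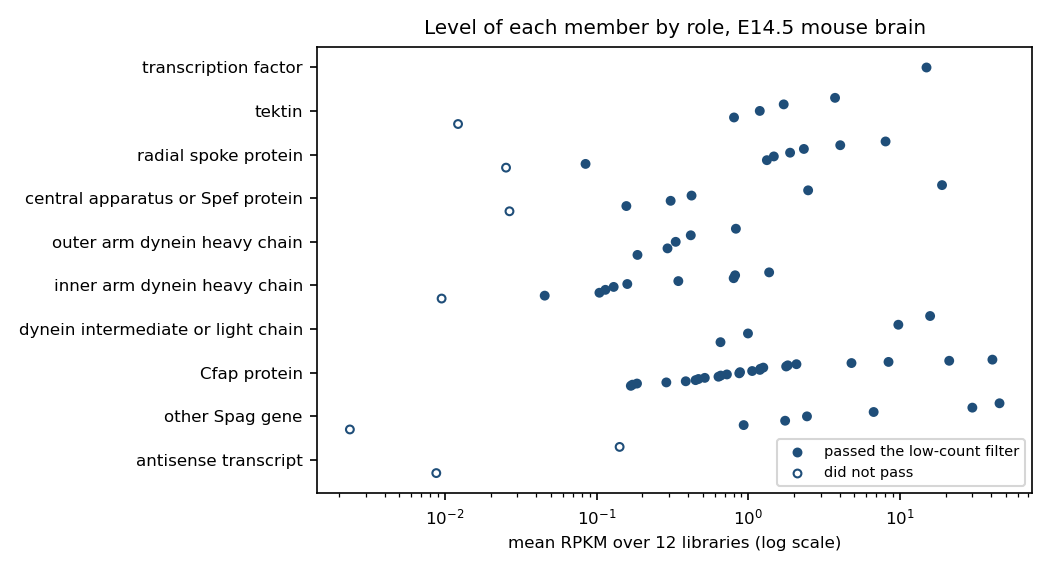
Mean RPKM over 12 libraries on a log axis for each member, with a row for each role. Filled points passed the low-count filter and open points did not. Spag11a, at 0 in every library, is not drawn. The heavy chains lie at or below 1.37 RPKM, while Spag9, Cfap20, Spag7, Cfap36, Spef1, Dnal4 and Foxj1 lie at 14.9 RPKM or higher.

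The 8 members that did not pass the filter were Dnah14, Rsph6a, Spag6, Tekt3, Spag11a, Spag11b, Dnah2os and Spag17os. Tekt3, a tektin known from sperm, had 5 counts over all 12 libraries. Spag11a had 0 counts in every library and Spag11b, its near copy, 1 count in A10. Near-identical genes can share reads, so the values of Dnah7a, Dnah7b and Dnah7c, of Rsph3a and Rsph3b and of Spag6 and Spag6l are uncertain. In GENCODE M21 on GRCm38, 24 members overlapped another tested gene or another member. With the strand setting of the counting not given in the sources used here, reads of overlapping genes on opposite strands may not have been told apart. Rsph14, at a mean of 0.255 CPM, lies opposite Gnaz at 85.6 CPM. Dnah17, at 5.48 CPM, lies opposite Pgs1 at 34.9 CPM, and Cfap43, at 17.7 CPM, opposite Gsto1 at 25.2 CPM. Spef1, at a mean of 52.2 CPM, overlaps Cenpb at 396 CPM on the same strand, and Rsph10b, at 4.12 CPM, likewise overlaps Pms2 at 30.1 CPM. The values of these members described below carry this uncertainty.

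Spread between embryos varied widely between members. Across the 12 embryos the coefficient of variation of CPM, which scales counts by library totals after TMM adjustment, was 1.92% for Spag9, with 9268 to 13312 counts a library, and 74.7% for Rsph14, with 1 to 15 counts. Tekt1 had 81 to 158 counts and a coefficient of 17.2%, and Foxj1 had 608 to 1075 counts and 9.66%. Dnah12 had 3 to 23 counts and 45.6%. Counts alone did not order the spread: Cfap44, with 150 to 389 counts, had a coefficient of 27.03%, and Dnah7c, with 18 to 39 counts, one of 15.8%.

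The first comparison asks whether loss of the element alters these genes. By the quasi-likelihood test of edgeR none of the 65 tested members differed between LC1 KO and LC1 WT brains at an adjusted p under 0.05, against a background of 0.0% of the 16002 genes, and DESeq2 and limma-voom also gave 0. At an unadjusted p under 0.05 there were 3 members, Tekt1, Dnah17 and Cfap43, against a background of 2.09%. Counting only lower genes, Tekt1 and Dnah17 stood against 1.42% of all genes, and counting only higher genes, Cfap43 stood against 0.669%. The adjusted p of edgeR was 1.0 for all 65 members in this and, after rounding, in the other comparisons. Lower levels were somewhat more frequent than in the whole table: 43 of the 65 members (66.2%) had a log2 fold change below 0, against 51.4% of all genes, and the median was -0.06 for members and -0.00 for all genes. Whole brain was sampled, so fewer ciliated cells and less RNA per ciliated cell cannot be told apart.

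Foxj1 (ENSMUSG00000034227, chromosome 11 at 116330704 to 116335399, minus strand) was at similar levels. It had 41.6, 41.8 and 32.9 CPM in KO 7, 22 and 71, against 39.1, 39.3 and 36.5 CPM in WT 6, 26 and 73. KO 71 was the lowest of the 6, and the groups overlapped. Its log2 fold change was 0.02 (SE 0.0930, 95% interval -0.18 to 0.22), and an exact two-sided permutation test gave p = 1.0.

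Tekt1 (ENSMUSG00000020799, chromosome 11 at 72344722 to 72362442, minus strand) had the smallest p of the members. Its level was 5.87, 5.01 and 4.38 CPM in KO 7, 22 and 71, against 7.68, 6.94 and 7.96 CPM in WT 6, 26 and 73. All 3 knockouts lay below all 3 wild types. The log2 fold change was -0.57 (SE 0.135, 95% interval -0.85 to -0.28), a fold of 0.675. The adjusted p by edgeR over all 16002 genes was 1.0, and 0.265 was its lowest value under the alternatives, reached without the filter on low counts. The exact permutation test gave p = 0.1, the smallest that 3 embryos against 3 allow. In the authors' deposited table the log2 fold change of Tekt1 is -0.55 with a p of 0.000442 and an adjusted p of 0.559.

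Transcript estimates of Tekt1 differed in how they compared. The most abundant, Tekt1-003, had 6.14, 4.90 and 4.57 estimated CPM in KO 7, 22 and 71, against 6.88, 4.52 and 4.55 in WT 6, 26 and 73. These groups overlapped, and the log2 fold change was -0.03 (SE 0.214). Tekt1-001 was estimated at 0, 0.440 and 0 CPM in KO 7, 22 and 71, against 0.533, 1.08 and 1.67 CPM in WT 6, 26 and 73 (log2 fold change -2.81, SE 1.90). Tekt1-002 was above 0 only in WT 26 at 1.41 CPM and WT 73 at 1.84 CPM of the 12 libraries, and did not pass the filter for testing. How reads were divided between transcripts is an estimate whose error is not known here. In RKI homozygotes against RKI WT the log2 fold change of Tekt1-003 was -0.01 (SE 0.213). Foxj1-001, the transcript of Foxj1 that was tested, had 23.1, 21.98 and 16.9 estimated CPM in KO 7, 22 and 71, against 23.4, 22.6 and 18.8 in WT 6, 26 and 73 (log2 fold change -0.06, SE 0.142).

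**Figure D2:**
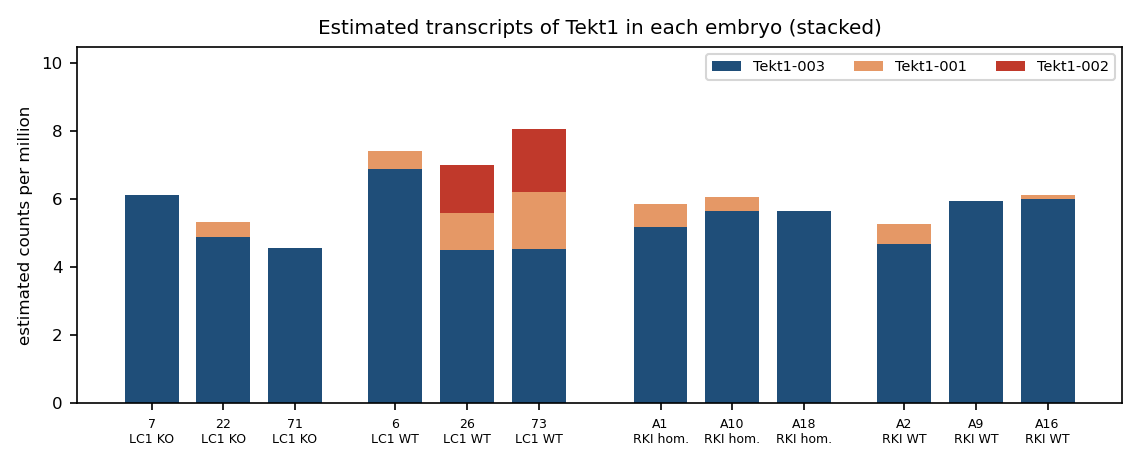
Estimated CPM of the 3 Tekt1 transcripts, stacked, in each of the 12 embryos, with LC1 KO, LC1 WT, RKI homozygous and RKI WT from left to right. Tekt1-003 makes up most of every bar, and Tekt1-002 appears only in WT 26 and WT 73.

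Tekt4, another tektin, had 1.60, 1.17 and 0.433 CPM in KO 7, 22 and 71, against 1.69, 1.58 and 1.51 CPM in WT 6, 26 and 73. KO 7 lay within the wild-type range and KO 71 far below it. Its log2 fold change was -0.56 (SE 0.306), with -0.22 without KO 71 and -0.91 without KO 7. Tekt2 and Tekt5 had values above 0, 0.18 (SE 0.179) and 0.34 (SE 0.292), and their groups overlapped. The tektins thus had no common direction, with 2 of 4 lower.

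All 7 tested radial spoke genes had log2 fold changes below 0, from -1.08 for Rsph14 to -0.04, with a median of -0.12, and none had a p under 0.05. Rsph14 had 0.214, 0.194 and 0.162 CPM in KO 7, 22 and 71, against 0.496, 0.218 and 0.504 CPM in WT 6, 26 and 73, which is 3 to 10 counts a library. Rsph10b had 3.74, 3.89 and 4.11 CPM in KO 7, 22 and 71, against 4.16, 5.24 and 4.58 CPM in WT 6, 26 and 73, also without overlap. Of the 5 tested genes of the central apparatus and Spef group 4 were below 0, with a median of -0.13.

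Dnah17, an outer arm heavy chain known best from sperm, had 5.18, 2.95 and 5.36 CPM in KO 7, 22 and 71, against 5.30, 5.13 and 8.82 CPM in WT 6, 26 and 73. KO 22 was low and WT 73 high, and the other 4 lay close together. Its log2 fold change of -0.54 (SE 0.249) was -0.24 without WT 73. Outer arm chains had a median of -0.08 with 4 of 5 lower. Inner arm chains pointed the other way, with 7 of 9 above 0 and a median of 0.08, although the number below 0 was 5 without KO 7 and 4 without WT 6.

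Cfap43, which with Cfap44 belongs to a complex tethering an inner arm dynein, had 18.7, 18.03 and 20.9 CPM in KO 7, 22 and 71, against 14.8, 18.2 and 15.5 CPM in WT 6, 26 and 73. WT 26 lay inside the knockout range. A log2 fold change of 0.25 (SE 0.102) resulted. Cfap57, linked to inner arm assembly in the alga Chlamydomonas, had 3.52, 2.68 and 3.30 CPM in KO 7, 22 and 71, against 3.57, 4.86 and 3.48 CPM in WT 6, 26 and 73. Its log2 fold change of -0.33 (SE 0.181) was -0.16 without WT 26. Of the 24 Cfap genes 18 were below 0, with a median of -0.09.

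Groups without overlap were counted as well. Among members 6 had every KO below every WT, namely Cfap45, Cfap70, Dnal1, Rsph10b, Rsph14 and Tekt1, against a background of 3.81% of all genes. In the opposite direction there was no member, against 3.36% of all genes. Dnal1 had 65.1, 65.9 and 63.7 CPM in KO 7, 22 and 71, against 71.8, 69.7 and 67.2 CPM in WT 6, 26 and 73, a log2 fold change of -0.10 (SE 0.0560).

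**Figure D3:**
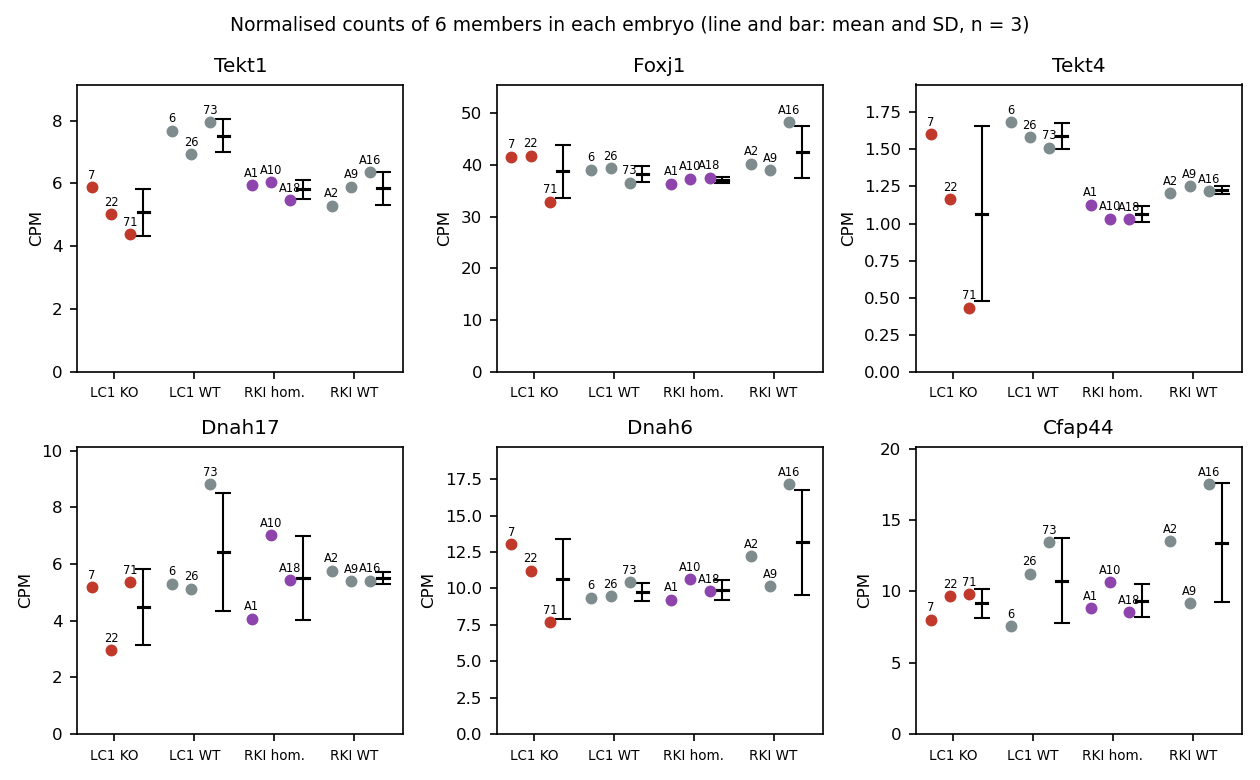
CPM of Tekt1, Foxj1, Tekt4, Dnah17, Dnah6 and Cfap44 in each embryo, on linear axes from 0, with mean and SD of each group of 3 beside the points. Tekt1 is the only panel in which the 3 LC1 KO points lie below the 3 LC1 WT points, and A16 is the highest RKI point for Tekt1, Foxj1, Dnah6 and Cfap44.

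Among the 164 tested transcripts of members, 6 (3.66%) had an unadjusted p under 0.05 in LC1 KO against LC1 WT, against a background of 2.97% of 47772 transcripts, and 0 passed after adjustment (background 0.0%). They were Spag9-001, Spag9-006, Spag9-008, Spag9-009, Spag7-002 and Cfap43-004. Most thus came from Spag9 alone, whose transcript estimates divide the same reads and are not separate results. Spag9-001 had 13.1, 18.5 and 11.5 estimated CPM in KO 7, 22 and 71, against 30.04, 22.2 and 27.9 in WT 6, 26 and 73. The groups did not overlap (log2 fold change -0.89, SE 0.213), but the share of all transcripts without overlap was not counted. Spag9-006, the more abundant transcript, had 175, 173 and 178 estimated CPM in KO 7, 22 and 71, against 148, 163 and 154 in WT 6, 26 and 73 (log2 fold change 0.18, SE 0.0467). These 2 estimates of the JNK scaffold gene had opposite signs, while the gene as a whole had a range of 506 to 520 CPM in KO and 495 to 524 CPM in WT. Spag7-002 had 6.42, 6.93 and 6.49 estimated CPM in KO 7, 22 and 71, against 8.83, 9.71 and 8.66 in WT 6, 26 and 73 (log2 fold change -0.45, SE 0.156).

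The second comparison sets the knock-in of the human variant against its own wild types. No member passed an adjusted p of 0.05 by edgeR, against a background of 0.0% of genes, and none by DESeq2 or limma-voom. At an unadjusted p under 0.05 there were 5 of 65, all lower in homozygotes, namely Dnah12, Cfap44, Dnah6, Dnah7c and Foxj1, against a background of 1.92%, or 0.981% of genes counting only lower ones. DESeq2 gave 1 such member and limma-voom 3. Of the 65 members 45 (69.2%) had a log2 fold change below 0, against 49.4% of all genes, with medians of -0.10 for members and 0.00 for all genes. These counts rested on single embryos. Without RKI WT A16 there were 0 members at an unadjusted p under 0.05 and 32 below 0. Members at an unadjusted p under 0.05 numbered 1 without A1, A18 or LC1 WT 26, 3 without LC1 KO 7 or LC1 WT 73, and 8 without A9 or A10. Counts over all genes moved as well in these fits. They were 307 with all embryos, 260 without A16, 187 without A1, 229 without A18, 272 without LC1 WT 26, 304 without LC1 KO 7 and likewise without LC1 WT 73, 1323 without A9 and 1342 without A10.

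Foxj1 had 36.4, 37.4 and 37.6 CPM in homozygous A1, A10 and A18, against 40.2, 38.9 and 48.3 CPM in WT A2, A9 and A16. Every homozygote lay below every wild type, and A16 stood apart on the high side. The log2 fold change was -0.19 (SE 0.0913, 95% interval -0.39 to -0.00), a fold of 0.875, and it was -0.10 without A16. The exact permutation test gave p = 0.1, again the smallest possible.

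Tekt1 had 5.94, 6.05 and 5.46 CPM in homozygous A1, A10 and A18, against 5.29, 5.89 and 6.35 CPM in WT A2, A9 and A16. The groups overlapped fully, and the log2 fold change was -0.01 (SE 0.132, 95% interval -0.29 to 0.27). Tekt4 had 1.13, 1.03 and 1.03 CPM in homozygous A1, A10 and A18, against 1.21, 1.25 and 1.22 CPM in WT A2, A9 and A16, without overlap (log2 fold change -0.20, SE 0.304). Among the tektins 2 of 4 were below 0.

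The inner arm heavy chains had the lowest median of the roles. All 9 tested were below 0 in homozygotes, with a median of -0.40 and a range of -0.87 to -0.12, and this role was singled out after its values were seen. Without A16, 8 of the 9 were below 0. Dnah6 had 9.23, 10.6 and 9.81 CPM in homozygous A1, A10 and A18, against 12.2, 10.2 and 17.2 CPM in WT A2, A9 and A16. A9 lay inside the homozygous range, and the log2 fold change of -0.40 (SE 0.180) was -0.19 without A16 and -0.62 without A9. Dnah12 had 0.390, 0.295 and 0.534 CPM in homozygous A1, A10 and A18, against 0.740, 0.501 and 1.04 CPM in WT A2, A9 and A16. Its groups overlapped between A18 and A9, and the log2 fold change was -0.87 (SE 0.374). Dnah7c had 1.13, 0.885 and 1.07 CPM in homozygous A1, A10 and A18, against 1.36, 1.504 and 1.44 CPM in WT A2, A9 and A16. The groups did not overlap (log2 fold change -0.48, SE 0.222), whereas the near copies Dnah7a and Dnah7b each overlapped between the groups.

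Cfap44 had 8.84, 10.7 and 8.55 CPM in homozygous A1, A10 and A18, against 13.5, 9.19 and 17.5 CPM in WT A2, A9 and A16. A9 again lay among the homozygotes. Its log2 fold change was -0.50 (SE 0.219), with -0.30 without A16 and -0.83 without A9. Without the filter on low counts Cfap44 had an adjusted p of 0.0230 by edgeR, the only member past the threshold in any comparison under the alternatives run. Radial spoke genes were below 0 in 4 of 7, outer arm chains in 4 of 5 with a median of -0.05, and Cfap genes in 16 of 24 with a median of -0.10.

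Among the members 7 had every homozygote below every wild type, namely Cfap53, Dnah10, Dnah11, Dnah7c, Foxj1, Rsph4a and Tekt4, against a background of 3.07% of all genes. None had the reverse, against 2.59%. None of the 164 member transcripts had an unadjusted p under 0.05 (background 2.45%), and none passed after adjustment by edgeR (background 0.0%). The smallest p values belonged to Dnah7b-002, Spag5-007 and Cfap221-001, each estimated at under 2 CPM in every library.

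**Figure D4:**
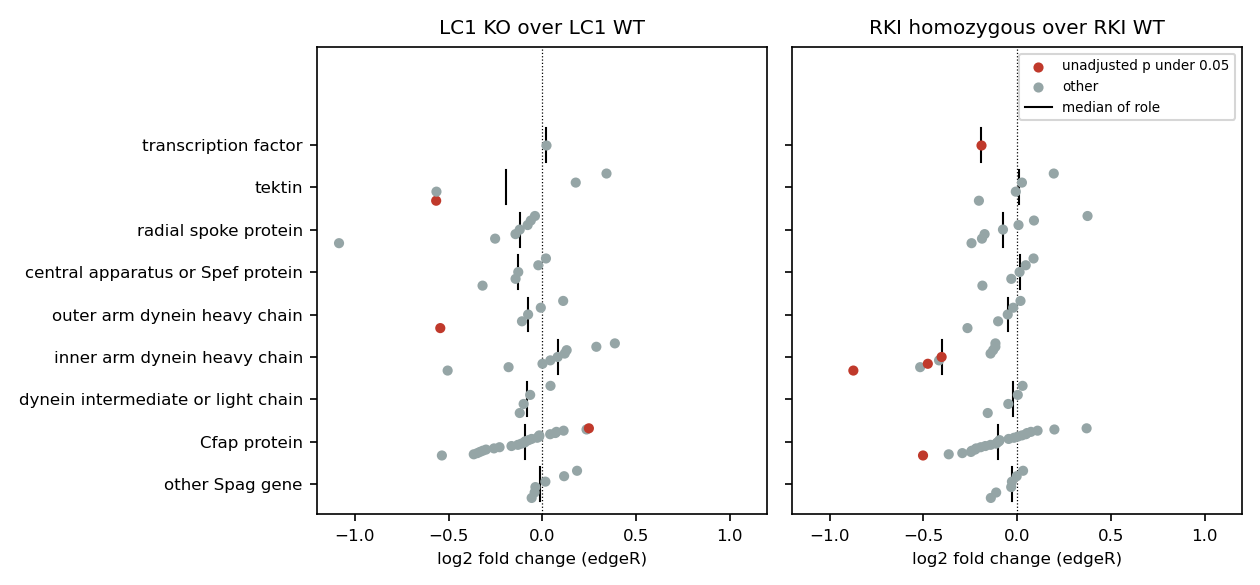
Log2 fold changes from edgeR of the 65 tested members by role, LC1 KO over LC1 WT on the left and RKI homozygous over RKI WT on the right. Red points had an unadjusted p under 0.05, and black bars are role medians. The 9 inner arm chains all lie left of 0 on the right panel, and 7 of the 9 lie right of 0 on the left panel.

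Libraries differed in how many members had their highest or lowest level there. Within the RKI experiment, WT A16 had the highest level for 34 of 65 members (52.3%), against 27.95% of all genes tested, and homozygous A18 for 2 members (3.08%), against 12.03%. Within the LC1 experiment, WT 6 was highest for 21 members (32.3%), against 26.3% of all genes, and KO 71 was lowest for 18 (27.7%), against 18.1%. WT 6 was also lowest for 16 members (24.6%), against 23.2% of all genes, so it was often extreme in both directions.

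**Figure D5:**
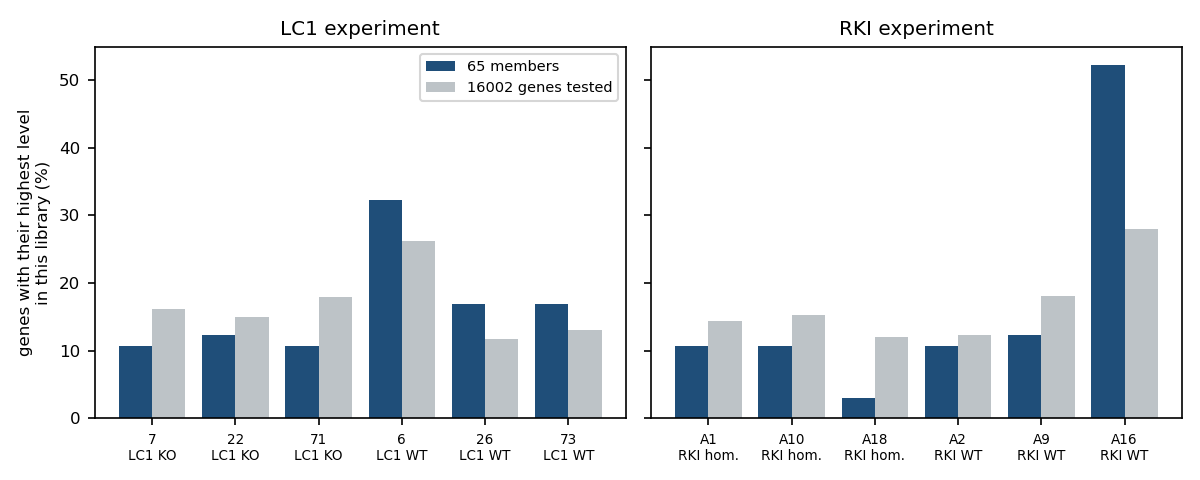
Percent of the 65 members (dark bars) and of the 16002 genes tested (light bars) whose highest level within the experiment fell in each library. A16 holds 52.3% of members and 27.95% of all genes.

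The difference between the 2 effects, RKI minus LC1, was tested in the same fit. No member passed adjustment by edgeR (background 0.0%), and DESeq2 and limma-voom also gave 0. At an unadjusted p under 0.05 there were 4 members, Tekt1, Cfap43, Cfap46 and Cfap57, against a background of 2.42%, split into 1.21% above and 1.21% below 0. Tekt1 had a difference of 0.56 on the log2 scale (SE 0.189, 95% interval 0.16 to 0.96). Cfap43 had a difference of -0.42 (SE 0.142) and Cfap57 one of 0.53 (SE 0.252). Dnah6 had -0.53 (SE 0.260), which was -0.32 without A16. Cfap46, a central apparatus protein in Chlamydomonas, had effects of -0.24 in RKI and 0.24 in LC1, a difference of -0.48 (SE 0.225). All 9 inner arm chains had a difference below 0, with a median of -0.37, against 31 of 65 members, the 9 included, and 47.9% of all genes. The role was singled out after its RKI and LC1 values were seen. The difference is built from those values, so it is no separate result. Dnah7a, Dnah7b and Dnah7c among them may share reads.

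Among embryos with an unaltered element, levels in RKI WT were set against those in LC1 WT, where line, experiment and litter cannot be told apart and sex is not balanced. By edgeR 2 genes passed adjustment, 0.0125% of those tested, and neither was a member. Tekt2 was the 1 member with an unadjusted p under 0.05, against a background of 3.89%, made up of 1.46% higher and 2.44% lower. It had 3.46, 3.68 and 2.70 CPM in RKI WT A2, A9 and A16, against 3.37, 2.79 and 2.27 CPM in LC1 WT 6, 26 and 73, which overlapped (log2 fold change 0.44, SE 0.208). For Tekt1 every RKI WT embryo lay below every LC1 WT embryo, with a log2 fold change of -0.33 (SE 0.161). Its mean was 5.85 ± 0.531 CPM in RKI WT and 7.53 ± 0.530 CPM in LC1 WT, with 5.09 ± 0.748 CPM in LC1 KO (SD, n = 3 each). Tekt5 had a log2 fold change of 0.63 (SE 0.331), which was -0.11 without A9, and Rsph14 one of -1.74 (SE 0.931) on 3 to 10 counts a library. Dnah2, an inner arm chain, had 0.28 (SE 0.149), with 0.14 without LC1 WT 6 and 0.45 without A9. The sex of the embryos differed here, with 3 females in LC1 WT and 1 female and 2 males in RKI WT, so these values lean on a sex term estimated within the RKI experiment. Without that term the log2 fold change was 0.23 for Tekt2, whose unadjusted p was then no longer under 0.05, and 0.41 for Tekt5, 0.21 for Dnah2, -0.37 for Tekt1 and -1.16 for Rsph14. Members without overlap numbered 4 lower, Cfap57, Rsph14, Tekt1 and Tekt4, against 4.23% of all genes, and 2 higher, Dnah2 and Rsph3a, against 3.36%.

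Other genes of the pathway, outside the naming rule, were counted in the same comparisons, and none passed adjustment. Of 41 tested genes of other motile cilium parts 13 were higher and 28 lower in LC1 KO (median -0.11), and 8 were higher and 33 lower in RKI homozygotes (median -0.14). In LC1 KO brains 3 of them had an unadjusted p under 0.05, against 2.09% of all genes, and all 3 were lower, against 1.42%. Their groups did not overlap, and in all 4 genes of the list had every KO below every WT, against 3.81% of all genes, and 1, Ccdc113, had every KO above every WT, against 3.36%. Drc1, a nexin-dynein regulatory complex protein, had 6.09, 5.21 and 4.65 CPM in KO 7, 22 and 71, against 7.73, 7.26 and 6.20 CPM in WT 6, 26 and 73 (log2 fold change -0.41, SE 0.142). Dnali1, an inner arm light chain, had -0.55 (SE 0.218) and Lrrc48, another regulatory complex gene, -0.35 (SE 0.153). In RKI homozygotes Mlf1 had -0.31 (SE 0.144). It was the 1 of 41 with an unadjusted p under 0.05 by edgeR, against 1.92% of all genes. It was also the 1 with every homozygote below every wild type, against 3.07%. The list summed to 225, 236 and 236 CPM in homozygous A1, A10 and A18. In WT A2, A9 and A16 it summed to 238, 238 and 273 CPM, without overlap and with A16 highest. Regulators of ciliogenesis, among them Gmnc, Mcidas, Rfx2 and Rfx3, were higher in 10 of 14 in LC1 KO and in 1 of 14 in RKI homozygotes, with medians of 0.04 and -0.11. Dynein assembly and docking factors were higher in 8 of 16 in LC1 KO and in 1 of 16 in RKI homozygotes. Dnaaf5, a cytoplasmic assembly factor, had -0.22 (SE 0.0932) in RKI. It was the 1 of 16 with an unadjusted p under 0.05 by edgeR, against 1.92% of all genes. In homozygous A1, A10 and A18 the regulators summed to 380, 402 and 386 CPM. In WT A2, A9 and A16 they summed to 408, 385 and 445 CPM. Assembly factors summed to 112, 111 and 107.4 CPM, against 117, 106.9 and 134 CPM in the same order. In both lists A16 was highest and the groups overlapped, and fold changes were not counted again without A16. Of 52 intraflagellar transport and primary cilium genes, which serve the non-motile cilia of most cells, 25 were higher in LC1 KO and 20 in RKI homozygotes, with medians of -0.00 and -0.02.

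Markers of tissues that bear motile cilia were lower beside some of these values and not beside others, and their part was not tested. The 18 choroid plexus markers, all measured, summed to 866, 856 and 751 CPM in KO 7, 22 and 71, against 1034, 859 and 818 CPM in WT 6, 26 and 73, and 15 of 18 were lower. They summed to 864, 848 and 873 CPM in homozygous A1, A10 and A18, against 897, 912 and 1005 CPM in WT A2, A9 and A16, and 12 of 18 were lower. By edgeR Kcne2 in LC1 KO had an unadjusted p under 0.05, against 2.09% of all genes. Clic6 and Slc4a5 did in RKI homozygotes, against 1.92%. In RKI 3 of the 18 had every homozygote below every wild type, against 3.07% of all genes. WT 6 and A16, the libraries highest for the most members, had the highest sums of their experiments, and KO 71 the lowest. WT 6 was also lowest for 24.6% of members, against 23.2% of all genes. WT 73, with the highest Tekt1, had the second lowest sum of the LC1 experiment. Ttr makes up most of the sum, and without it, an alternative chosen after seeing the data, the sums were 253, 252 and 218 CPM in KO 7, 22 and 71, against 271, 249 and 252 CPM in WT 6, 26 and 73. They were 240.4, 234 and 236 CPM in homozygous A1, A10 and A18, against 246, 234 and 294 CPM in WT A2, A9 and A16. WT 73 then lay above KO 22, KO 71 and WT 26, and the RKI groups, which did not overlap with Ttr in the sum, overlapped. A16 also had the highest sum of the 8 radial glia markers, 2552 CPM against 2022 to 2372 CPM in the other libraries, and the lowest of the 7 neuron markers, 7128 CPM against 7507 to 8340 CPM. Of 9 floor plate markers 6 were lower in LC1 KO (median -0.09). In RKI homozygotes 7 of the 9 were higher (median 0.25), 4 of them without overlap, against 2.59% of all genes. Corin, under 1 CPM in every library, and Ntn1 had an unadjusted p under 0.05, against 0.937% of all genes counting only higher ones. The 9 summed to 369, 388 and 375 CPM in homozygous A1, A10 and A18. They summed to 380, 355 and 388 CPM in WT A2, A9 and A16, so the sums overlapped. All 9 markers were lower in RKI WT than in LC1 WT (median -0.44). Of them 6 were without overlap, against 4.23% of all genes counting only lower ones. An unadjusted p under 0.05 was found for 5, against 2.44% counted likewise. Roof plate and subcommissural organ markers were lower in 7 of 9 in LC1 KO and in 5 of 9 in RKI homozygotes. Among them Wnt1 in LC1 and Rspo3 in RKI had an unadjusted p under 0.05 by edgeR, against 2.09% and 1.92% of all genes. Nasal epithelium, another ciliated tissue, was represented by 13 markers, of which 11 were under 1 CPM in every library and Scgb1a1 and Reg3g were at 0.

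Across the 12 embryos 3 relations were computed. Foxj1 and the choroid plexus sum had Pearson r = 0.70 and Spearman rho = 0.52 (permutation p = 0.0162 and 0.0854, adjusted over the 3 relations 0.0485 and 0.256). Without the 2 embryos farthest in the sum, 6 and A16, r was 0.74, and it was 0.57 within the LC1 experiment (exact p = 0.231) and 0.96 within the RKI experiment (exact p = 0.0139). Embryos were permuted without regard to genotype or experiment, so differences between groups enter every r and p given here. In RKI both Foxj1 and the sum separated fully by genotype, with A16 highest in both. These p-values thus do not measure covariation between embryos of the same group. Tekt1 and the choroid plexus sum had r = 0.48 and rho = 0.19 (permutation p = 0.114 and 0.556, adjusted 0.171 and 0.835), with r = 0.23 without 6 and A16, 0.59 within LC1 and 0.44 within RKI. With Ttr left out of the sum Tekt1 had r = 0.56 and rho = 0.49 (permutation p = 0.0571 and 0.109), with r = 0.51 without A16 and 71, 0.75 within LC1 (exact p = 0.0639) and 0.53 within RKI (exact p = 0.361). Tekt1 and Foxj1 had r = 0.20 and rho = -0.03 (permutation p = 0.543 and 0.937, adjusted 0.543 and 0.937), with r = -0.43 without the embryos farthest in Foxj1, A16 and 71, 0.23 within LC1 and 0.43 within RKI.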

How the data were processed

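The authors deposited whole-number gene counts, RPKM per gene, estimated counts per transcript, and their own comparisons with log2 fold changes and p-values. The submitters' processing notes list the tools edgeR, limma, featureCounts 1.4.5, Subread and STAR 2.0.4b, with no roles. Build, annotation, strand setting and transcript tool were not given in the sources used here. Of the table, the 41264 rows hold 40690 identifiers, and 574 repeated rows were dropped. The sign of the authors' deposited RKI log2 fold changes was turned, because they give wild type minus homozygous.

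Counts were tested with edgeR 4.0.16 in R 4.3.3 (quasi-likelihood test, TMM, filterByExpr by group, robust), with 4 group means and sex over all 12 libraries, 7 residual degrees of freedom, and Benjamini-Hochberg adjustment at 0.05 over all 16002 genes. The common biological coefficient of variation was 6.94%. Rounded transcript estimates were tested likewise over 47772 transcripts. The step was tested on simulated data with large changes in well-counted genes and the same dispersion for every gene. Small changes and genes with low counts were not covered by that test. CPM are counts scaled by TMM totals, and log2 CPM used a prior count of 2. P-values of edgeR weigh a difference between groups against the spread between embryos within groups. Correlations used 100000 permutations, or all pairings within an experiment. Alternatives were RLE scaling, no filter, DESeq2 1.42.0, limma-voom (limma 3.58.1), no sex term, 6 libraries only, a block over neighbouring embryo numbers, and leaving out each embryo. All 73 members matched GENCODE M21 coordinates by identifier, and 58 matched RefSeq promoters by symbol.

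Named members are Foxj1, Tekt1, the 10 with the highest mean RPKM, the 5 with the smallest p in each comparison, the tested transcripts of Tekt1 and Foxj1 and the 3 member transcripts with the smallest p. The rule also covers 3 genes of each other list in LC1 and in RKI. Of these, those at an unadjusted p under 0.05 in the cilium lists and in the marker lists of ciliated tissues are printed. Other members were named after their values were seen. Members and lists were chosen with earlier results of these data known.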

Additional observations from a re-analysis of the deposited data

How the results depend on the processing

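Scaling by RLE, DESeq2, limma-voom, dropping the sex term or using only the 6 libraries of an experiment left 0 genes past the threshold in both mutant comparisons. Without the filter on low counts 4 genes passed in LC1, 26 in RKI (1 of them a member, Cfap44), 17 for the difference and 28 for RKI WT against LC1 WT. The cause was not tested. Genes at an unadjusted p under 0.05 then numbered 656, 745, 817 and 977, against 334, 307, 388 and 623 with the filter, and 183, 177, 238 and 401 by DESeq2. Members at an unadjusted p under 0.05 numbered 1 by DESeq2 and 3 by limma-voom in RKI. For the difference they numbered 8 without the filter and 2 by limma-voom, and for the wild types 6 without the filter, 0 by DESeq2, 2 by limma-voom and 3 without the sex term. A replicate block over neighbouring embryo numbers, which no label ties to litters, gave 3 genes in RKI and 1 for the difference, none a member, and left 2 members at an unadjusted p under 0.05 for the difference.

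Leaving out each embryo gave 0 to 2 genes past the threshold in RKI, 0 to 1 for the difference, 1 to 4 for the wild types and 0 members in every comparison. Members at an unadjusted p under 0.05 ran from 2 to 5 in LC1 (5 without WT 26), from 2 (without KO 22 or A16) to 7 (without A9 or A10) for the difference and from 0 (without KO 22 or 71) to 6 (without A9 or A16) for the wild types. All genes at that p ran from 217 (without WT 6) to 719 (without WT 73) in LC1. For the difference they ran from 271 (without A1) to 959 (without A9), with 958 without A10, 658 without WT 73, 454 without KO 22 and 404 without A16. For the wild types they ran from 505 (without A2) to 1186 (without A16), with 1078 without A10, 650 without A9, 592 without KO 22 and 607 without KO 71. Members below 0 ran from 38 to 47 in LC1 and from 32 to 47 in RKI. Tekt1 ran from -0.67 to -0.47 in LC1 and from -0.076 to 0.076 in RKI, with a turn of sign without A16 or A18. Foxj1 ran from -0.040 to 0.12 in LC1, with a turn of sign without KO 7, KO 22 or WT 73, and from -0.26 to -0.10 in RKI. Tekt5 between wild types ran from -0.11 to 0.93, and Rsph14 from -3.87 (without A9) to -0.94 (without A1). The correlation of Tekt1 with Foxj1 was -0.43 without A16 and 71, that of Foxj1 with the choroid plexus sum was 0.57 in LC1 embryos alone, and it was 0.84 with Ttr left out of the sum, an alternative chosen after seeing the data, but then 0.37 without A16 and 71. The full palindrome was in 0.0% of members. A fit on 6 libraries was not run for the difference or the wild types, nor the block for the wild types. With 3 embryos a group and under 20 counts a library in several members, small differences in the lowest members were not detectable at this depth.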
